A study of Homo sapiens with 4 samples.

Results

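Transcripts of 52 genes that build, load or protect the DNA replication fork were compared between JJN3 cells carrying an shRNA against WNK1 (shWNK1) and JJN3 cells carrying the NS shRNA. The 52 genes were a list of origin, fork and S phase genes, chosen with earlier results of these data known. They were matched by symbol in a deposited count table of 60682 genes and were grouped into 11 complexes or roles. JJN3 is a line established from a human plasma cell cancer, multiple myeloma, and was grown here with fetal serum. Both groups were transduced cells of this 1 line, with 2 libraries of total RNA each, and the cells with the NS shRNA are the comparison group. The labels name neither the hairpins' sequences nor the time after transduction, do not spell out NS, and do not say whether the 2 libraries of a group came from separate transductions, and the p-values therefore rest on the spread between libraries alone, which may be technical. The title of shWNK1 replicate 2 spells the target shNWK1, and its treatment label reads shWNK1.

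Before a cell copies its DNA, the origin recognition complex (ORC), CDC6 and CDT1 load the ring-shaped MCM2-7 helicase onto origins, and geminin (GMNN) restrains CDT1. At the start of S phase, CDC45 and the GINS complex join MCM2-7 to form the active helicase. RPA then coats the unwound strands, polymerase α-primase lays down primers, the RFC complex loads the sliding clamp PCNA, and polymerases δ and ε extend the strands. Most of these genes are transcribed around the G1/S boundary under E2F transcription factors, and in cycling cells their transcripts are among the usual markers of proliferation.

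Most of the members whose promoters were listed carried an E2F consensus word there. Promoter windows of 300 bases (250 before and 50 after a start site, RefSeq, GRCh38.p14) were listed for 44 of the 52 members and were searched on both strands, overlaps allowed, for the E2F words TTTCCCGC, TTTGGCGC, TTTCGCGC and TTTGCCGC. At least 1 of these words was present for 26 of the 44 members (59.1%), against 6.66% of 10536 tested genes in the same table. Counted by window, 27 of 56 member windows (48.2%) and 3.31% of all 35116 windows held one. The word was found for 12 of 22 members that fell in shWNK1 cells, 12 of 19 that were not called and 2 of 3 that rose, so carriers stood in all 3 outcomes. The CCAAT box (CCAAT, both strands) was present for 29 of 44 members (65.9%) and for 42.9% of the tested genes. Stretches of 60 bases that end at or before the annotated start are shown, 5′ to 3′ on the gene's strand, for 4 members that fell, 2 that were not called and 1 that rose, to show that the same words stand before members with different outcomes. Capitals mark an E2F word or its reverse complement.
MCM3 (fell; chr6:52284883-52284942, minus strand): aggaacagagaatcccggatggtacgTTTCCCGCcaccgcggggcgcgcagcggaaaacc
MCM6 (fell; chr2:135876496-135876555, minus strand): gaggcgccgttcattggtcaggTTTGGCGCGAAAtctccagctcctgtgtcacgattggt
GINS2 (fell; chr16:85688955-85689014, minus strand): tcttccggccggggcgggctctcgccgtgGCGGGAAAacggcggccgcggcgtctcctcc
PCNA (fell; chr20:5126648-5126707, minus strand): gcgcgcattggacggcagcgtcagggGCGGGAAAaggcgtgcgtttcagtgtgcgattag
CDT1 (not called; chr16:88803728-88803787, plus strand): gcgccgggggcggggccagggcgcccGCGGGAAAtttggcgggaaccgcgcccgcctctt
E2F2 (not called; chr1:23531242-23531301, minus strand): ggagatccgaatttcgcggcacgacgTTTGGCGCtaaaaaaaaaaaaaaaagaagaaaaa
E2F1 (rose; chr20:33686386-33686445, minus strand): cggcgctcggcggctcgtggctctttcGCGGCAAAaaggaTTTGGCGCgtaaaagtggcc

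The 4 libraries held 16973521 to 20164122 counts. WNK1 itself, the target, was at 18.6 and 19.6 CPM (counts per 1e6 counts of the TMM-scaled library) under shWNK1 and at 288 and 245 CPM under NS, the direction the labels call for. All 8 plasma cell markers were counted, from 7.38 CPM for CD38 to 872 CPM for IRF4, with 5 falls, among them SDC1 (log2 -1.32), and 2 rises. CD3D, MS4A1, LYZ, HBB and COL1A2, which define T, B, myeloid, red and stromal cells, had 0 counts in every library, which allows up to 0.177 CPM. The epithelial marker EPCAM stood at 123 and 114 CPM, and the B-cell factor PAX5 at 2.99 and 7.27 CPM, in shWNK1 and NS cells. The other T-cell, myeloid and erythroid markers had at most 10 counts in a library. The part of the marker differences in the members' values was not tested.

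Replication transcripts fell more often than they rose in shWNK1 cells, mostly by small amounts. Of the 52 members, all of which passed the low-count filter, 27 fell (51.9%), 4 rose (7.69%) and 21 were not called (quasi-likelihood F test of edgeR, p adjusted by Benjamini-Hochberg, threshold 0.05). Among all 14864 genes tested, 20.2% fell, 18.5% rose and 38.8% were called in either direction. The members were well counted, with 304 to 18791 counts per library, and among the 7628 tested genes with a mean level at least that of the lowest member (19.8 CPM) 30.4% fell and 22.8% rose. This comparison group was chosen after the values were seen. The members were chosen with earlier results of these data known, so their shares beside these backgrounds are a description. The median log2 fold change was -0.22 over the members, -0.03 over those well-counted genes and 0.01 over all tested genes. Without shWNK1 replicate 1 there were 20 falls and 3 rises among the members, and without shWNK1 replicate 2 there were 19 and 3. Over all tested genes the counts dropped as well, to 1964 falls and 1663 rises of 15780 genes tested without shWNK1 replicate 1, and to 2034 and 1632 of 15746 without shWNK1 replicate 2, from 3005 and 2755.

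Both shWNK1 libraries lay below both NS libraries for 34 members (65.4%, against 33.7% of tested genes) and above them for 7 (13.5%, against 34.7%), while the groups overlapped for 11. Libraries of the same group typically differed by 0.06 (shWNK1) and 0.07 (NS) on the log2 scale, as medians over the members. The widest gaps within a group were those of RFC2 between the shWNK1 libraries (0.29) and RPA3 between the NS libraries (0.35). A fall of at least 1.5-fold was called for 6 members (MCM4, CDCA7, ATAD2, HELLS, MCM3 and GINS2), 11.5% against 7.16% of all tested genes, and 2 of them, MCM4 and CDCA7, fell at least 2-fold. The other 21 falls were smaller, and no rise reached 1.5-fold. In bulk RNA, fewer cells in S phase and less transcript per cell cannot be told apart.

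**Figure D1:**
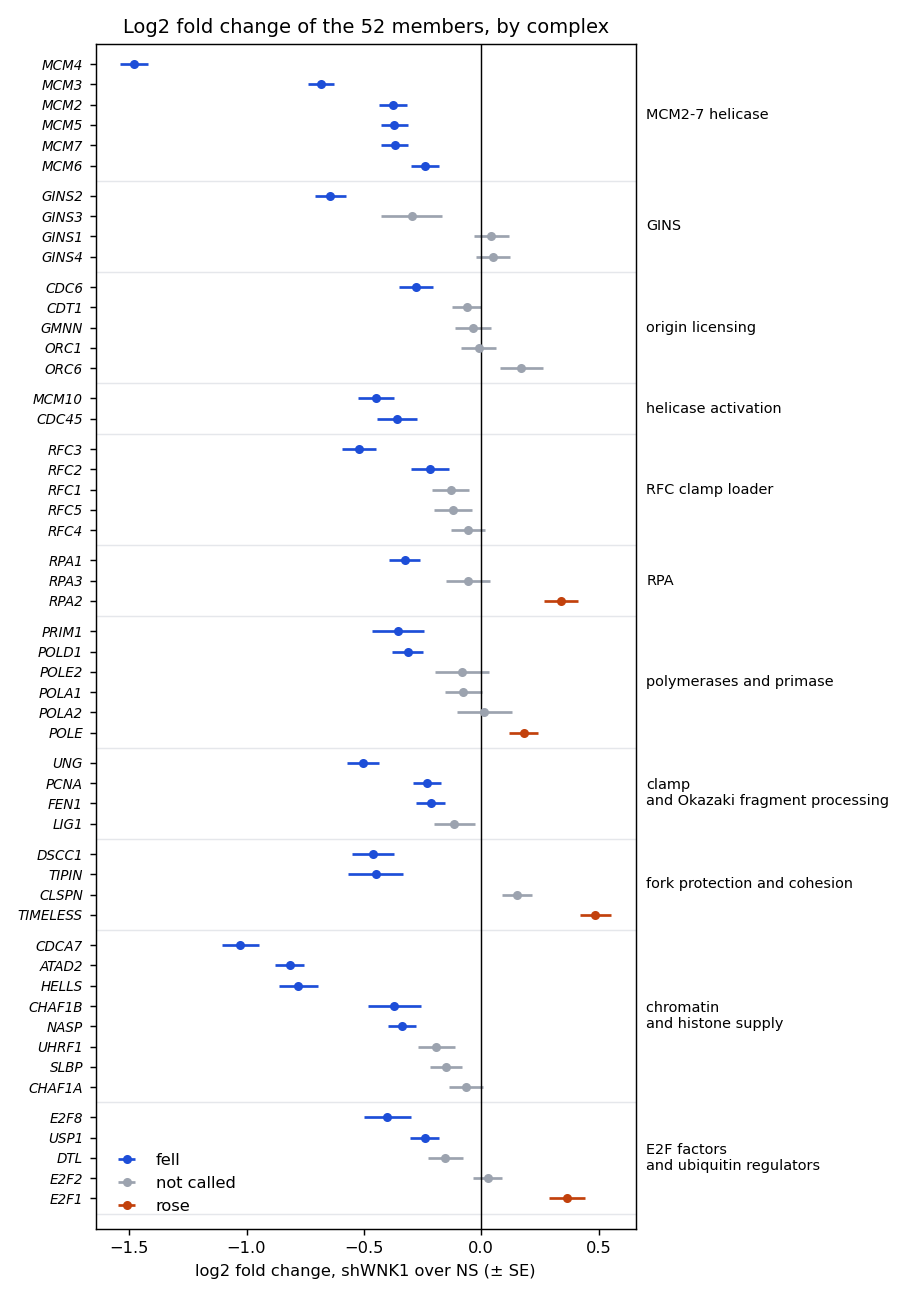
Log2 fold change of each of the 52 members (x axis, shWNK1 over NS, ± SE from the edgeR fit), grouped by complex or role on the y axis, with blue for members that fell, orange for members that rose and grey for members not called. All 6 MCM2-7 genes lie left of 0, with MCM4 farthest at -1.48, and the 4 orange points are TIMELESS, E2F1, RPA2 and POLE.

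**Figure D2:**
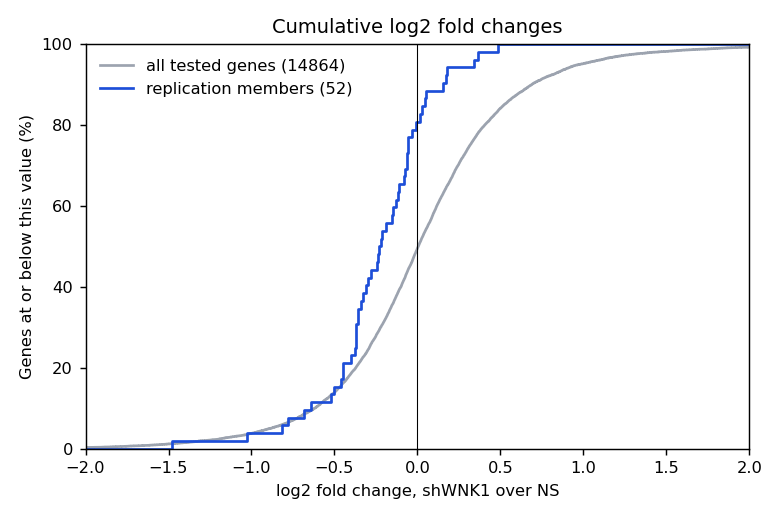
Share of genes (y axis, percent) with a log2 fold change at or below the value on the x axis (shown from -2 to 2), for all 14864 tested genes (grey) and the 52 members (blue). The blue curve passes 50% at the members' median of -0.22 and the grey curve at 0.01, and below about -0.5 the curves run close together.

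Summed over the 52 members, the level was 6336 and 6418 CPM in the shWNK1 libraries and 8173 and 8095 CPM in the NS libraries, 21.6% lower on average in shWNK1 cells. The MCM2-7 genes held 37.5% of the sum in NS cells and 63.8% of the difference. MCM4 alone held 24.9% of the difference and MCM3 23.4%. Of the 46 members outside MCM2-7, 21 fell (45.7%, against 20.2% of all tested and 30.4% of well-counted genes), with a median log2 fold change of -0.17.

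All 6 subunits of the MCM2-7 helicase fell, where 20.2% of all tested and 30.4% of well-counted genes did. MCM4 fell much farther than its partners. MCM4 (ENSG00000104738.18, hg38 chromosome 8, 47960185 to 47978160, plus strand) was at 243 and 245 CPM in the shWNK1 libraries, against 699 and 663 CPM in the NS libraries. The libraries of each group lay close together and the groups were far apart, a 2.79-fold fall (244 ± 1.01 against 681 ± 25.3 CPM, mean ± SD, n = 2 libraries each; log2 -1.48 with SE 0.058, edgeR adjusted p = 1.6e-19). MCM3 (ENSG00000112118.20, chromosome 6, 52264014 to 52284881, minus strand), the most abundant subunit, was at 689 and 665 CPM in shWNK1 and 1102 and 1073 CPM in NS libraries and fell 1.61-fold (log2 -0.68 with SE 0.056, edgeR adjusted p = 1.1e-11). MCM2 fell from 273 and 283 CPM to 209 and 219 CPM (log2 -0.38) and MCM5 from 283 and 283 to 215 and 222 (log2 -0.37). MCM7 fell from 474 and 507 to 371 and 388 (log2 -0.37). In all 3 cases both shWNK1 libraries lay below both NS libraries, as for 33.7% of all tested genes. MCM6 fell least, from 232 and 226 CPM to 196 and 192 CPM (log2 -0.24 with SE 0.060, edgeR adjusted p = 0.0018; 0.0772 without shWNK1 replicate 2). Exons of MCM2 overlap a gene without a symbol on the opposite strand over 23.6% of their bases and those of MCM7 overlap AP4M1 over 8.94%. Strand was not used in counting.

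**Figure D3:**
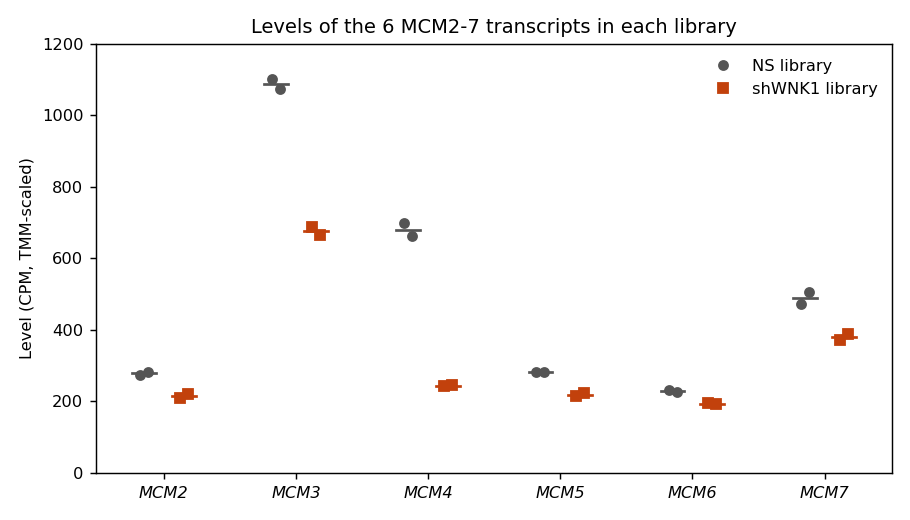
Levels of the 6 MCM2-7 transcripts (y axis, CPM scaled by TMM, linear from 0) in each NS library (grey circles) and shWNK1 library (orange squares), with a short line at each group's mean. The shWNK1 points lie below the NS points for every subunit, and the gap is widest in proportion for MCM4, at 243 and 245 against 699 and 663 CPM.

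The 6 proteins form a ring with 1 copy of each, so the balance of their transcripts was examined as shares of the summed counts per kilobase of exon. MCM4 made up 8.12% and 8.17% of the MCM2-7 sum under shWNK1, against 15.1% and 14.4% under NS. The shares of MCM2, MCM5, MCM6 and MCM7 were correspondingly higher in both shWNK1 libraries, as for MCM6 with 11% and 10.8% against 8.45% and 8.30%. MCM3 held 43.9% and 42.5% against 45.6% and 44.7%. The groups did not overlap for any of the 6 shares, but the shares are parts of 1 sum and do not move independently. For the levels of all tested genes, both shWNK1 libraries lay below both NS libraries in 33.7% and above them in 34.7%. An exact two-sided permutation test of 2 against 2 libraries cannot give a p below 0.333. On the log2 scale MCM4 fell by 0.80 more than MCM3 (combined SE 0.080 if the 2 estimates are independent) and by 1.10 to 1.24 more than the other 4. With 1 library left out at a time, the log2 fold change of MCM4 stayed between -1.51 and -1.44.

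**Figure D4:**
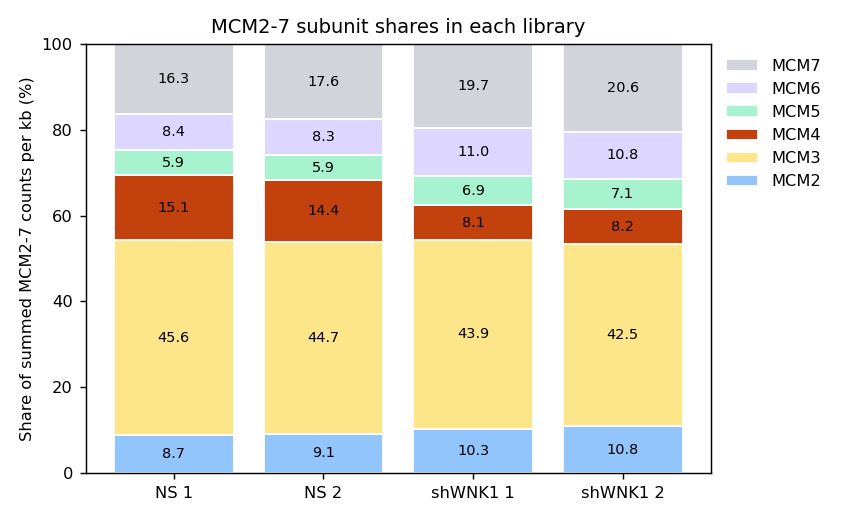
Share of each subunit in the summed MCM2-7 counts per kilobase of exon (y axis, percent, each bar adding to 100) in the 4 libraries. The MCM4 segment is 15.1% and 14.4% under NS and 8.12% and 8.17% under shWNK1, while MCM3 is the largest segment in all 4.

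Both factors listed for turning the loaded ring into an active helicase fell, where 20.2% of all tested and 30.4% of well-counted genes did. CDC45, which joins MCM2-7 at the firing origin, fell from 65.7 and 70.4 CPM in NS to 55.6 and 50.8 CPM in shWNK1 libraries (log2 -0.36 with SE 0.085, edgeR adjusted p = 0.0010; 0.0681 without shWNK1 replicate 2). MCM10, a firing factor that is no subunit of the ring, fell from 101 and 93 to 73.6 and 68.3 CPM (log2 -0.45 with SE 0.077, edgeR adjusted p = 1.7e-05). For both genes the shWNK1 libraries lay below both NS libraries, as for 33.7% of all tested genes.

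Within GINS, a complex of 4 proteins, only GINS2 was called. It fell 1.56-fold, from 158 and 166 CPM to 103 and 105 CPM (log2 -0.64 with SE 0.066, edgeR adjusted p = 2.0e-09). GINS1 was at 94.4 and 87.2 CPM in shWNK1 and 89.9 and 86.2 CPM in NS libraries (edgeR adjusted p = 0.69), and GINS4 at 92.5 and 88.6 CPM against 86.4 and 88.5 CPM (edgeR adjusted p = 0.64). GINS1 overlapped between the groups, and the GINS4 values differed by less than 1 CPM between the nearest libraries. GINS3, the lowest of the 4, was at 17.4 and 18 against 22.2 and 21.4 CPM with no overlap but did not pass the test (log2 -0.30, SE 0.128, edgeR adjusted p = 0.066). GINS2 held 42.4% and 44.3% of the summed GINS counts per kilobase under shWNK1, against 53.9% and 55.5% under NS. Exons of GINS4 and GINS3 overlap other genes on the opposite strand over 23.4% and 10.9% of their bases.

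Origin licensing genes mostly did not pass the test. CDC6, the loader that brings the ring to ORC, was the 1 call among 5. It fell from 104 and 101 CPM to 81.9 and 87.2 CPM (log2 -0.28 with SE 0.073, edgeR adjusted p = 0.0026; 0.115 without shWNK1 replicate 1). Its partner CDT1 was at 159 and 163 CPM in shWNK1 and 169 and 167 CPM in NS libraries (log2 -0.06, SE 0.063), and GMNN, the inhibitor of CDT1, at 92 and 87.6 CPM against 86 and 97.9 CPM. The ORC subunit ORC1 was at 92.4 and 92.9 against 97.4 and 89.4 CPM. GMNN and ORC1 overlapped between the groups, with log2 values of -0.03 and -0.01. ORC6 was higher in both shWNK1 libraries, at 46.8 and 49.1 against 42.9 and 42.3 CPM, without passing the test (log2 0.17, edgeR adjusted p = 0.15). The 5 listed licensing genes had a median log2 fold change of -0.03, beside -0.37 for the MCM2-7 ring. Of the ORC subunits outside this list, named here after their values were seen, ORC2 and ORC3 fell. Their log2 values were -0.26 and -0.38 (edgeR adjusted p = 0.016 and 0.00099). ORC4 (-0.06) and ORC5 (-0.06) were not called. With 1 library left out the licensing median lay between -0.07 and -0.02. The difference between licensing genes and ring was not tested.

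In the group of 4 made up of the clamp, enzymes that finish lagging-strand fragments and the glycosylase UNG, 3 fell (75%). Of all tested genes 20.2% fell, and of the well-counted genes 30.4%. PCNA, the sliding clamp, fell from 219.6 and 218 to 185 and 188 CPM (log2 -0.23 with SE 0.060, edgeR adjusted p = 0.0026), and the flap nuclease FEN1 from 209 and 228 to 187 and 189 CPM (log2 -0.22 with SE 0.062, edgeR adjusted p = 0.0059). Both calls were lost without shWNK1 replicate 1 (adjusted p = 0.0977 and 0.129) or replicate 2 (0.0542 and 0.087). UNG, the glycosylase that removes uracil from new DNA, fell 1.42-fold, from 136 and 141 to 99.9 and 95.8 CPM (log2 -0.50 with SE 0.068, edgeR adjusted p = 3.7e-07). The ligase LIG1 was at 57.4 and 67.9 CPM in shWNK1 and 70.5 and 65.4 CPM in NS libraries, which overlapped (edgeR adjusted p = 0.32).

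In the RFC clamp loader the small subunit RFC3 stood out. RFC3 was at 79.1 and 80.3 CPM in the shWNK1 and 119 and 109 CPM in the NS libraries, a 1.43-fold fall with no overlap (log2 -0.52 with SE 0.073, edgeR adjusted p = 7.3e-07). RFC2 also fell (log2 -0.22 with SE 0.082, edgeR adjusted p = 0.032), but its shWNK1 libraries stood apart at 75.5 and 92.2 CPM beside 97.7 and 97.8 CPM in NS. Without shWNK1 replicate 1 its log2 value was -0.08 (adjusted p = 0.643), and the call also ended with DESeq2 (0.0863) and upper-quartile factors (0.0801). RFC1, the large subunit, RFC4 and RFC5 were not called, with log2 values of -0.13, -0.06 and -0.12. RFC1 was called without NS replicate 2 (-0.23, adjusted p = 0.00856), which makes 3 falls in the complex. DSCC1, which belongs to an alternative clamp loader acting in sister chromatid cohesion, fell from 61.2 and 58.4 to 43.7 and 43.2 CPM (log2 -0.46 with SE 0.087, edgeR adjusted p = 7.1e-05).

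In RPA, the single-strand binding complex of 3 subunits, 1 subunit fell, 1 rose and 1 was not called. RPA1, the large DNA-binding subunit, fell from 182 and 168 CPM to 134 and 145 CPM (log2 -0.33 with SE 0.066, edgeR adjusted p = 1.7e-04). RPA2, the subunit that checkpoint kinases phosphorylate, rose from 95 and 109 to 131 and 127 CPM (log2 0.34 with SE 0.072, edgeR adjusted p = 3.4e-04). RPA3 was at 58.8 and 56.8 in shWNK1 and 52.8 and 67.4 CPM in NS libraries. The NS libraries bracketed both shWNK1 libraries for RPA3, and its log2 value was -0.22 without NS replicate 1 (adjusted p = 0.0352) and 0.13 without NS replicate 2 (0.286). RPA1 made up 22.4% and 24.5% of the summed RPA counts per kilobase under shWNK1, against 34.1% and 28.8% under NS, and RPA2 60.8% and 59.2% against 49.2% and 51.6%.

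Polymerase transcripts went both ways and moved little. POLD1, the catalytic subunit of polymerase δ, fell from 151 and 152 to 117 and 127 CPM (log2 -0.31 with SE 0.066, edgeR adjusted p = 2.8e-04; 0.0562 without shWNK1 replicate 1). POLE, the catalytic subunit of polymerase ε, rose from 188 and 193 to 212 and 221 CPM (log2 0.18 with SE 0.061, edgeR adjusted p = 0.018; 0.0933 and 0.287 without shWNK1 replicates 1 and 2). The primase subunit PRIM1 fell from 31.8 and 34.2 to 26.4 and 25.1 CPM (log2 -0.36 with SE 0.111, edgeR adjusted p = 0.010; 0.0607 and 0.123 without shWNK1 replicates 1 and 2, and 0.0511 without NS replicate 2). Without shWNK1 replicate 1 none of these 3 calls was left, and without shWNK1 replicate 2 only that of POLD1. POLA1 and POLA2 of polymerase α, and POLE2, the second subunit of polymerase ε, overlapped between the groups, with log2 values of -0.08, 0.01 and -0.08. Exons of POLA2 and PRIM1 share 39.4% and 22.2% of their bases with other genes, mostly on the same strand.

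The fork protection complex was split between its partners. TIMELESS, its scaffold, rose 1.40-fold, the largest rise among the members, from 114 and 109 CPM to 150.0 and 161 CPM (log2 0.49 with SE 0.067, edgeR adjusted p = 5.3e-07). TIPIN, which binds TIMELESS, fell from 28.5 and 31.9 to 23.1 and 21.1 CPM (log2 -0.45 with SE 0.118, edgeR adjusted p = 0.0025; 0.0745 without shWNK1 replicate 2). A pseudogene, RPL9P25, covers 21.1% of the exon bases of TIPIN on the same strand. CLSPN, the adaptor that links the fork to the checkpoint kinase CHEK1, was higher in both shWNK1 libraries, at 160.5 and 163 against 149.8 and 141 CPM, and did not pass the test (log2 0.15, edgeR adjusted p = 0.057). It passed with upper-quartile factors (0.0162), with a filter of 1 CPM in 2 libraries (0.0489) and without NS replicate 1 (0.00844).

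After MCM4, the largest falls were those of chromatin factors that act behind or beside the fork. CDCA7, a MYC and E2F target that partners the remodeller HELLS, was at 46.5 and 48.4 CPM in shWNK1 and 95.2 and 98.2 CPM in NS libraries, a 2.04-fold fall (log2 -1.03 with SE 0.080, edgeR adjusted p = 3.8e-12). HELLS fell 1.72-fold, from 75.4 and 79.3 to 45.1 and 45.1 CPM (log2 -0.78 with SE 0.083, edgeR adjusted p = 4.2e-09). ATAD2, a bromodomain ATPase of replicating chromatin, fell 1.76-fold, from 325 and 294 to 179.7 and 172 CPM (log2 -0.82 with SE 0.063, edgeR adjusted p = 2.8e-12). The groups were well separated for all 3 genes, and each was called with any 1 library left out.

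Of the histone chaperones NASP, CHAF1A and CHAF1B, 2 fell. NASP, a chaperone of the histone H3-H4 reserve, fell from 360.3 and 371 to 279 and 300.2 CPM (log2 -0.34 with SE 0.059, edgeR adjusted p = 2.2e-05). Of the CAF-1 subunits, which place histones on new DNA, CHAF1B fell from 31.7 and 38.6 to 28.4 and 26 CPM (log2 -0.37 with SE 0.114, edgeR adjusted p = 0.0097; 0.151 when shWNK1 replicate 2 was left out and 0.176 when NS replicate 2 was), and CHAF1A was at 89.7 and 90.2 against 93.7 and 94.4 CPM (edgeR adjusted p = 0.52). SLBP, which binds the end of histone mRNAs, was at 111 and 111 in shWNK1 and 124 and 123 CPM in NS libraries (adjusted p = 0.080). UHRF1, which reads hemimethylated DNA for the maintenance methyltransferase, was at 73.3 and 69.6 CPM against 78.3 and 84.6 CPM (adjusted p = 0.053) and passed with limma-voom (0.0498), RLE factors (0.0489) and without NS replicate 1 (0.00923). All 8 chromatin and histone supply members were lower in both shWNK1 libraries than in both NS libraries, as were 33.7% of all tested genes. The test was passed by 5 of them (62.5%), where 20.2% of all tested and 30.4% of well-counted genes fell.

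The regulators were mixed. E2F1, an activator of these genes, rose from 76.9 and 72.8 to 94.6 and 98.1 CPM (log2 0.37 with SE 0.075, edgeR adjusted p = 2.0e-04), and E2F2, another activator, was at 179 and 176 against 178 and 171 CPM, overlapping between the groups. The repressor E2F8 fell from 49 and 41.7 to 34.7 and 34 CPM (log2 -0.40 with SE 0.101, edgeR adjusted p = 0.0018). DTL, the substrate receptor that has CDT1 destroyed at PCNA, was at 82.4 and 86 in shWNK1 and 95.1 and 92.3 CPM in NS libraries (adjusted p = 0.101). USP1, which removes ubiquitin from PCNA, fell from 192 and 179 to 159 and 156 CPM (log2 -0.24 with SE 0.063, edgeR adjusted p = 0.0026), a call that was lost without shWNK1 replicate 1 (0.0588) or replicate 2 (0.082).

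Other genes of the same pathway were tested in the same fit. Of 36 further fork and origin genes, 35 were tested, and 12 fell (34.3%, against 20.2% of all tested and 30.4% of well-counted genes), 3 rose and 20 were not called. Their median log2 fold change was -0.08, and it was -0.14 without shWNK1 replicate 1 and -0.045 with upper-quartile factors. Falls numbered 6 and 7 without shWNK1 replicates 1 and 2, and rises 1 to 4 with 1 library left out. Among them POLE3, an accessory subunit of polymerase ε, fell from 186 ± 4.28 to 137 ± 9.16 CPM (mean ± SD, n = 2; log2 -0.44), ORC3 by 0.38 on the log2 scale (adjusted p = 0.0842 without shWNK1 replicate 2) and the fork repair factor TONSL by 0.37. MCM9, a relative of the ring subunits that acts in repair, rose (log2 0.86), as did DBF4B, an activator of the origin kinase CDC7 (log2 0.39; adjusted p = 0.131 without shWNK1 replicate 1). RNASEH2A was too low to test, and 53.3% of its exon bases are shared with other genes on its strand. Of 8 nucleotide supply genes 6 fell (75%) and 0 rose (5 and 3 fell without shWNK1 replicates 1 and 2), led by the thymidylate synthase TYMS (log2 -0.77), the ribonucleotide reductase subunit RRM2 (-0.46) and DUT (-0.38), which clears dUTP.

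Genes that control entry into S phase changed in both directions. In the list of 18 genes of the E2F network and G1/S control, 6 rose, 6 fell (33.3% each way) and 6 were not called, where 20.2% of all tested genes fell and 18.5% rose and 30.4% and 22.8% of the well-counted genes did. CDC25A, the phosphatase that activates CDK2, fell from 110.0 ± 0.322 to 31.3 ± 1.96 CPM (log2 -1.81 with SE 0.084, edgeR adjusted p = 8.0e-18), and cyclin CCNE1 (log2 -0.83) and the activator E2F3 (-0.69) fell as well. The other E-type cyclin, CCNE2, rose (log2 0.56 with SE 0.104, edgeR adjusted p = 4.7e-05) and is named here after its value was seen. The CDK inhibitor CDKN1A rose from 80.1 ± 1.15 to 273 ± 5.13 CPM (log2 1.77 with SE 0.065, edgeR adjusted p = 2.7e-20), with rises of the repressor E2F7 (0.80) and the inhibitor CDKN1B (0.65). Of 12 G2/M genes 7 fell (58.3%) and 0 rose, with a median of -0.29, led by CCNA2 (-1.06), AURKA (-0.91) and PLK1 (-0.83). In the ATR checkpoint list of 8, with 1 to 3 rises when 1 library was left out, RAD9A (0.50) and ATR (0.26) rose and CHEK1 (-0.51) fell. The call of ATR was lost without either shWNK1 library (adjusted p = 0.105 and 0.114) and without NS replicate 2 (0.189). The part of cell cycle position in the members' values was not tested.

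Per kilobase of exon, which allows levels of different genes to be compared, the highest and lowest members were the same in both groups, while several others changed rank. MCM3 was highest at 298 CPM per kb in NS and 186 in shWNK1 cells, followed by PCNA, MCM7 and FEN1 in both, and GINS3 was lowest at 4.27 and 3.47. MCM4 ranked 5th of 52 in NS cells at 97.7 CPM per kb, next to FEN1 at 99.3, and 15th in shWNK1 cells at 35. CDCA7 moved from 26th to 41st (24.6 and 12.1 CPM per kb) and ATAD2 from 16th to 25th. RPA2 moved up from 11th to 5th, E2F1 from 25th to 14th and TIMELESS from 34th to 23rd. Exon length is that of all annotated exons of a gene, so genes with long, rarely used exons come out too low.

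The 6-base word AGTATC was picked out from these same libraries as frequent in the 3′ untranslated regions of genes that fell, so its place in the members is a description only. In 1 GENCODE v29 transcript per gene (GRCh38, sense strand), 8 of the 52 members (15.4%) held the word. Of these, 6 fell, 0 rose and 2 were not called, with a median log2 fold change of -0.45. Of the 44 members without the word 21 fell, 4 rose and 19 were not called, with a median of -0.20. Over all searched genes, 2457.0 of 11866.0 held the word (20.7%), and 35.9% of these fell (median -0.13) against 20.4% of those without it (median 0.03). Members with the word also had longer 3′ untranslated regions, with a median of 1724 bases against 701.5. Over all searched genes the medians were 2944 bases with the word and 837 without it. The hairpin's sequence was not used here, and the part of the word or of length in these values was not tested. The carriers include MCM4 and ATAD2, which fell by 1.48 and 0.82 on the log2 scale, while CDCA7, MCM3 and GINS2, among the 6 members that fell at least 1.5-fold, lack it.

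The sites of the other carriers are shown as 30 bases of the transcript, 5′ to 3′, with the word in capitals, because they are the feature shared by RFC3, RPA1, HELLS and CHAF1B, which fell, and by GINS1 and DTL, which were not called. CHAF1B holds it at 2 places.
RFC3 (fell; chr13:33836315-33836344, plus strand): caaagatttctcAGTATCagtatttacata
RPA1 (fell; chr17:1897742-1897771, plus strand): ctatatctgaagAGTATCcttccttcaggg
HELLS (fell; chr10:94601786-94601815, plus strand): caagaacaaagaAGTATCcatattaagttt
CHAF1B first site (fell; chr21:36416533-36416562, plus strand): gctgttgtattcAGTATCcatttttaactt
CHAF1B second site (fell; chr21:36417059-36417088, plus strand): caaagcaaaaaaAGTATCttttttgttttt
GINS1 (not called; chr20:25446704-25446733, plus strand): ggggtgatcaccAGTATCaccactttggaa
DTL (not called; chr1:212103301-212103330, plus strand): tgctcagtggaaAGTATCtgccagccacag
Within single complexes, RFC3 (log2 -0.52) was the carrier among the RFC subunits, whose other 4 lay between -0.22 and -0.06. RPA1 (-0.33) was the carrier in RPA. In MCM2-7 it was MCM4 (-1.48), and the other subunits fell without the word. In GINS the carrier was GINS1 (0.04), and the subunit that fell, GINS2 (-0.64), lacks the word. Among the chromatin and histone supply members, HELLS (-0.78), ATAD2 (-0.82) and CHAF1B (-0.37) carried it, while CDCA7 (-1.03) and NASP (-0.34) fell without it. Because the word was picked from these same libraries, such matches are a description and no support for a role of the word.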

How the data were processed

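RNA-seq counts of 4 JJN3 libraries (2 shWNK1, 2 NS) were analysed. The values are whole-number counts for each gene, produced and deposited by the authors, who used featureCounts 2.0.0 on the GENCODE 34 annotation, counting read pairs without strand at a mapping quality of at least 20, per the file headers. Trimmomatic and STAR on hg38 preceded this, per the submitters' processing notes, with no version given. The deposited exon length per gene, in bases, was used only for levels per kilobase. 1 gene broken over several lines and 45 Y copies of pseudoautosomal genes were left out of 60728, and 60369 identifiers matched a symbol.

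Counts were tested across all genes with edgeR 4.0.16 in R 4.3.3: filterByExpr (14864 genes), TMM factors, glmQLFit (robust) and glmQLFTest, two-sided, Benjamini-Hochberg adjusted, called under 0.05. SE is the log2 fold change over the square root of F. The pipeline was tested on simulated data. Alternatives were DESeq2 1.42.0, limma-voom (limma 3.58.1), RLE and upper-quartile factors, 2 other filters, leaving out immunoglobulin and mitochondrial genes, a replicate block, and each library in turn. Counts of 3 stand for the upper limit at 0, counting error only. Reads of near-identical or overlapping genes may be lost. The members and lists were chosen with earlier results of these data known. All 52 members were named, and in each further list up to 3 called rises and 3 called falls of largest size with at least 5 CPM.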

Additional observations from a re-analysis of the deposited data

How the results depend on the processing

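Over the 12 alternatives, members that fell numbered 19 to 29 and members that rose 3 to 5, within 1.5 times of 27 and 4. The members' median moved from -0.225 to -0.186 with upper-quartile factors, by more than the spread of the library pairs. With these factors the median over all tested genes moved in the same direction, from 0.005 to 0.044. With 1 library left out, rises over all tested genes numbered 1632 to 2778 and falls 1964 to 3024, against 2755 and 3005. Of the called members, 16 falls and 3 rises kept their call under all 12 alternatives and none changed sign. Direction changed for 7 members that were not called. With upper-quartile factors the log2 values of ORC1 and GMNN were 0.029 and 0.0047. With 1 library left out, values ranged for ORC1 from -0.067 to 0.051, GMNN from -0.127 to 0.066, LIG1 from -0.25 to 0.0038, GINS1 from -0.0096 to 0.10, POLA1 from -0.15 to 0.0030, POLA2 from -0.064 to 0.084 and RPA3 from -0.22 to 0.13. The cause of these moves was not tested. The labels share replicate numbers, but same-numbered libraries did not deviate together (r = 0.0013 over 14864 genes), and with the replicate block 27 members fell, 4 rose and their median was -0.23, with 2804 falls and 2539 rises over all genes. When 1 library is left out, the lone library of its group is assumed to vary like the others.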
